A study of Homo sapiens with 6 samples.

Results

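The MARCH genes (MARCHF in newer annotation) encode ubiquitin ligases with a RING-CH domain, most of which span a cellular membrane. The 9 members MARCH1 to MARCH9 were taken by symbol from the 57133 symbols of the count table. MARCH1 was selected on its difference in this same comparison, so its values are given as a description without a test, and MARCH2 to MARCH9 were taken as its paralogs because they carry the family name. RNA was sequenced from T98G cells, a human glioblastoma line, after knockout of CBX8 with the guide sgCBX8 and puromycin selection. CBX8 is a chromodomain subunit of Polycomb repressive complex 1, and the comparison asks which transcripts change when it is put back. The CBX8 KO libraries (n = 3) came from knockout cells with the empty TetO-FUW vector, and the WT CBX8 re-expression libraries (n = 3) from the same knockout with V5-tagged wild-type CBX8 in that vector. All 6 received doxycycline at 1 μg/ml for 72 h. The genotype label of the re-expression libraries reads wild type, whereas their titles and the methods describe re-expression in the knockout, and the latter was followed. The cells with the empty vector and those with CBX8 are separately transduced lines, so the effect of CBX8 and a difference between the lines cannot be told apart, and whether either is 1 clone is not given in the sources used here. Nothing in those sources says that the libraries came from separate cultures, so p-values measure the spread between libraries.

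Total counts lay between 7950190 and 8659796 per library. CBX8 itself had 96, 104 and 83 counts in CBX8 KO and 30372, 31408 and 27791 upon re-expression, a log2 fold change of 8.22 (SE, the standard error, 0.08), in the direction of the labels. This is 297-fold. The series holds no library of unedited T98G cells, so whether CBX8 RNA exceeded its usual level cannot be told. Of 11 glial and glioblastoma markers, 3 (S100B, SOX2 and FABP7) had no count in any library, and NES had at most 4. GFAP, OLIG2 and CHI3L1 were low, with a mean CPM (count scaled to the library total) of 1.82, 1.78 and 0.66 in CBX8 KO. In the re-expression libraries they stood at 2.91, 3.21 and 0.59. VIM stood at 2723 in CBX8 KO and 2812 upon re-expression, and EGFR at 301 and 300.3. Of the tested markers VIM, CD44, GFAP, OLIG2, EGFR and TNC, TNC rose 2.62-fold and CD44 fell by 0.21 on the log2 scale (adjusted p = 7.2e-15 and 0.0097, edgeR). Over all tested genes 6.23% were called higher and 6.63% lower. CD44 is also in the list of surface substrates below, and the part of both genes in the results was not tested.

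Ubiquitin ligases of this family attach ubiquitin to membrane proteins, which are then internalised and sorted to lysosomes or taken out of a membrane and degraded by the proteasome. MARCH1 and MARCH8 act on surface immune receptors and the transferrin receptor. MARCH1 is best known in dendritic cells and B cells, where it lowers surface MHC class II and CD86 and is induced by IL-10. MARCH2 and MARCH3 sit mainly on endosomes, MARCH4 and MARCH9 on the Golgi and endosomal route, MARCH5 in the mitochondrial outer membrane and MARCH6 in the endoplasmic reticulum. MARCH7, also called axotrophin, lacks a clear transmembrane segment.

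MARCH1 lies on the minus strand of chromosome 4 (hg38, GENCODE release 44) from 163524298 to 164384050. It spans 859.753 kb, with 10 exons in its canonical transcript and 15 annotated transcripts that begin at 14 different positions. MARCH4 lies on the minus strand of chromosome 2 from 216257865 to 216372483, with 4 exons and 1 transcript. The promoters of these genes are shown because they are the members with the largest differences. Each run covers 250 bases before to 50 bases after a RefSeq start (GRCh38.p14, minus strand, 5′ to 3′), and capitals mark CpG dinucleotides. The windows are chr4:164383970-164384269 (MARCH1 upstream start), chr4:164383468-164383767 (MARCH1 neighbouring start), chr4:163613485-163613784 (MARCH1 start inside the gene) and chr2:216372434-216372733 (MARCH4).
MARCH1 upstream start: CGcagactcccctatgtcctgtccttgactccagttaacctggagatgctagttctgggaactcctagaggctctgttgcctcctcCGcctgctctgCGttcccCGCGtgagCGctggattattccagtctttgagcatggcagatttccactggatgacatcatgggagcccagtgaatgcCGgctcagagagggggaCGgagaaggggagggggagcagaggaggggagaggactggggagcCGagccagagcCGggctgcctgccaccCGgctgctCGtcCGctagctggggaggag
MARCH1 neighbouring start: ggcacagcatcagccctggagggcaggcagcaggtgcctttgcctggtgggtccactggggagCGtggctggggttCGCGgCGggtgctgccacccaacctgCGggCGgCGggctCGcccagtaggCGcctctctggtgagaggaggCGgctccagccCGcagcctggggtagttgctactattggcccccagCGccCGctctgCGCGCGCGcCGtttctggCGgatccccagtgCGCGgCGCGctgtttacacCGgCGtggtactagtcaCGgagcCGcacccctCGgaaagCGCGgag
MARCH1 internal start: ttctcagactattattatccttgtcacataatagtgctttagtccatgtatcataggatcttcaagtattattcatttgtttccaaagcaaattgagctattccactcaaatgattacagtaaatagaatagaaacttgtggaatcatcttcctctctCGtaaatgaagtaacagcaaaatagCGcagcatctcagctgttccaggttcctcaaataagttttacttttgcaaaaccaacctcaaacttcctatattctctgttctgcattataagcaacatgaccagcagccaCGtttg
MARCH4 start: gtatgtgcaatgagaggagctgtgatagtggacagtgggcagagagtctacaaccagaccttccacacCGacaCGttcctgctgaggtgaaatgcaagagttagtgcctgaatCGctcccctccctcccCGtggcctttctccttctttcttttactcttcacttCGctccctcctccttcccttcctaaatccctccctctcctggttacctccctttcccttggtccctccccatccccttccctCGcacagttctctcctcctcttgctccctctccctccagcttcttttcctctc

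The neighbouring MARCH1 start held 30 CpG dinucleotides, and 22.4% of 35116 RefSeq promoters of this length held at least as many. The upstream start held 13 (51.7% of promoters had at least as many) and the internal start 3 (81.8%), and the MARCH4 promoter held 6 (66.3%). The median over all promoters was 14. MARCH6 was not matched in this promoter table. For the other 6 members the promoter at the gene's 5′ end held between 29 and 38. On either strand, the neighbouring MARCH1 start held 1 match to the GC box GGGCGG, present in 45.0% of all promoters, and 1 to CCAAT, present in 34.6%. None of the 4 windows held TATAAA (11.5% of all promoters) or TGACNNNGC, the core of the antioxidant response element (13.3%). Counts per gene do not say which of these starts was used.

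MARCH1 transcripts were higher upon WT CBX8 re-expression in each library. The CBX8 KO libraries had 33, 36 and 32 MARCH1 counts and the re-expression libraries 343, 379 and 420. In CPM with TMM-adjusted library sizes, MARCH1 went from 4.17 ± 0.0916 (SD, n = 3) to 44.4 ± 4.95 (SD, n = 3). The CBX8 KO libraries lay close together and far below every re-expression library. MARCH1 thus had a log2 fold change of 3.41 (SE 0.13), a 10.6-fold difference, and 6 of the 14461 tested genes had a higher one. These 6 include CBX8 itself. They also include KRT18P12, MYO16 and GALNT16, which passed the filter on low counts only through the re-expression libraries. In bulk RNA, a change in the number of cells that transcribe a gene and a change in RNA per cell cannot be told apart.

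**Figure D1:**
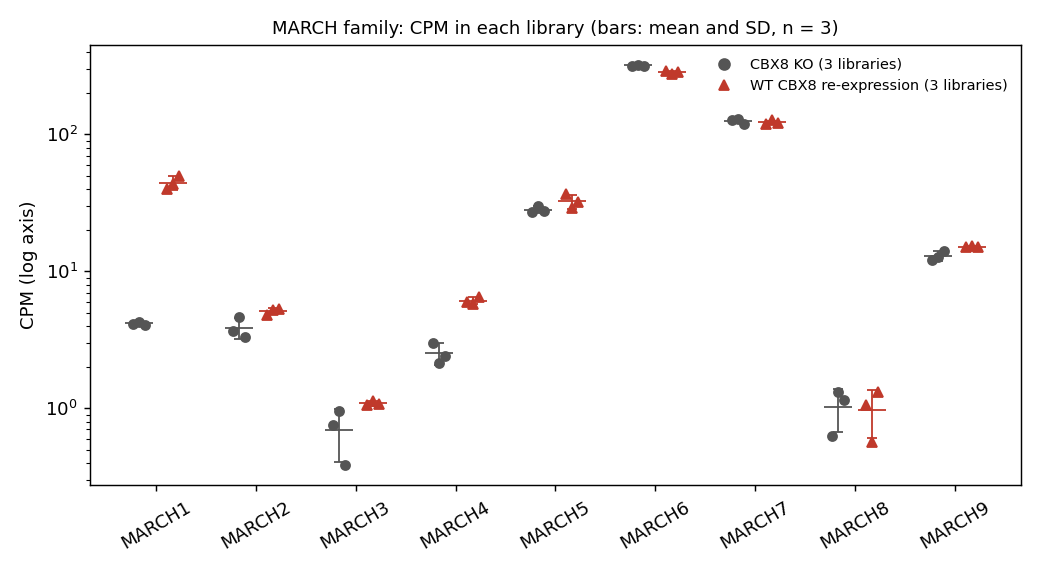
CPM on a log axis for the 9 members in each of the 3 CBX8 KO libraries (circles) and the 3 WT CBX8 re-expression libraries (triangles), with the mean and SD of each condition. MARCH1 lies between 4.085 and 4.266 CPM in CBX8 KO and between 40.19 and 49.85 CPM with CBX8, the widest gap among the members, followed by that of MARCH4.

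Each paralog was set beside MARCH1 within the same libraries. In CBX8 KO the MARCH1 count was between 0.142 and 0.153 of the MARCH5 count, and upon re-expression between 1.10 and 1.57 times the MARCH5 count. Against MARCH9 the ratio went from between 0.291 and 0.344 to between 2.68 and 3.33. Against MARCH4, the paralog that also rose, it went from between 1.38 and 2 to between 6.73 and 7.64. The log2 fold change of MARCH1 exceeded that of the 6 tested paralogs by 2.14 (MARCH4) to 3.57 (MARCH6). These differences follow from how MARCH1 was selected and were not tested.

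Of MARCH2 to MARCH9, 6 had enough counts to be tested. Of these, 1 (MARCH4) rose and 1 (MARCH6) fell at FDR < 0.05 in edgeR's quasi-likelihood test, with p-values adjusted by Benjamini-Hochberg over all genes. Of all 14461 tested genes 6.23% were called higher and 6.63% lower, so 1 gene in each direction is not a result about the family. All re-expression libraries lay above all CBX8 KO libraries for 4 of the 8 paralogs (MARCH2, MARCH3, MARCH4 and MARCH9) and below them for MARCH6, where 14.4% and 14.5% of tested genes did so. MARCH3 was too low to be tested.

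MARCH4, whose described targets include MHC class I and the adhesion molecule ALCAM, also rose. It had 24, 18 and 19 counts in CBX8 KO and 51, 51 and 55 upon re-expression, and the conditions did not overlap. The mean went from 2.53 ± 0.453 CPM (SD, n = 3) to 6.10 ± 0.376 CPM (SD, n = 3). MARCH4 had a log2 fold change of 1.27 (SE 0.22, 95% interval 0.83 to 1.71), or 2.41-fold (adjusted p = 0.00015, edgeR), and 0.380% of tested genes had one at least as high. An antisense transcript (ENSG00000231092) overlaps an exon of MARCH4, and without a known strand setting its reads cannot be separated.

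MARCH9, the closest relative of MARCH4, did not pass the test. Its counts were 96, 108 and 110 in CBX8 KO and 128, 134 and 126 upon re-expression, which did not overlap. The log2 fold change was 0.22 (95% interval -0.02 to 0.45, adjusted p = 0.23, edgeR).

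Of the endosomal members, MARCH2 had 29, 39 and 26 counts in CBX8 KO and 41, 46 and 45 upon re-expression. All re-expression libraries were higher, but its log2 fold change of 0.40 (95% interval -0.02 to 0.82) did not pass the test (adjusted p = 0.22, edgeR). MARCH3 had 6, 8 and 3 counts against 9, 10 and 9. At this depth no difference was detectable for MARCH3, and a fit over all 28010 genes with a count gave a log2 fold change of 0.61 with a 95% interval from -0.33 to 1.55.

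MARCH8, the family member most like MARCH1, had 5, 11 and 9 counts in CBX8 KO and 9, 5 and 11 upon re-expression, a total of 25 in each condition. The libraries of both conditions overlapped, and the same fit gave a log2 fold change of -0.10 with a 95% interval from -0.97 to 0.78. Of the bases of its canonical transcript 92.93% also match an alternate contig of hg38, so its low counts are uncertain.

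Of the organelle members MARCH6 and MARCH5, MARCH6 had the highest counts of the family, and MARCH5 lay below MARCH7. MARCH6, the counterpart of yeast Doa10, which marks the cholesterol synthesis enzyme SQLE for degradation, had 2512, 2721 and 2488 counts in CBX8 KO and 2464, 2429 and 2418 upon re-expression. Scaled to library size it fell from 319 ± 3.27 CPM (SD, n = 3) to 284 ± 6.53 CPM (SD, n = 3), with no overlap. This is a 1.12-fold decrease (CBX8 KO over re-expression), a log2 fold change of -0.17 (SE 0.05, adjusted p = 0.018, edgeR). This call was lost under 4 of 14 alternatives: with library sizes not adjusted by TMM (adjusted p = 0.128), with the replicate number as a block (adjusted p = 0.0518), and when the second replicate of CBX8 KO (adjusted p = 0.0889) or that of WT CBX8 re-expression (adjusted p = 0.119) was left out, each by edgeR. MARCH5, which controls mitochondrial division and antiviral signalling, had 215, 253 and 215 counts in CBX8 KO and 311, 253 and 268 upon re-expression. These overlapped, and the log2 fold change of 0.20 (95% interval 0.00019 to 0.40) did not pass (adjusted p = 0.20, edgeR).

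MARCH7 had 1008, 1087 and 939 counts in CBX8 KO and 1011, 1108 and 1025 upon re-expression. The libraries overlapped, and the log2 fold change of -0.04 had the narrow 95% interval of -0.14 to 0.07. An antisense exon of CD302 overlaps MARCH7.

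**Figure D2:**
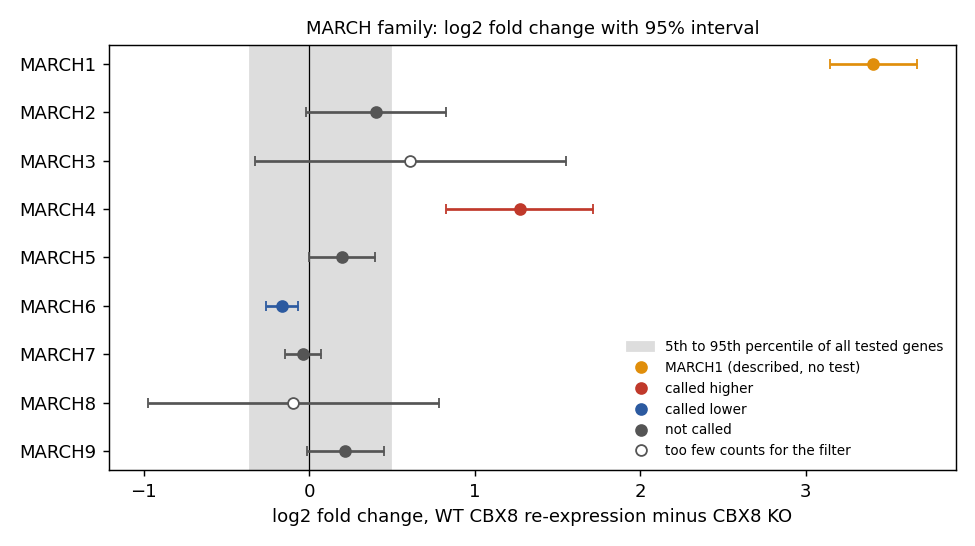
Log2 fold change of WT CBX8 re-expression over CBX8 KO for the 9 members with 95% intervals, over a grey band from the 5th to the 95th percentile of all tested genes (-0.36 to 0.49). MARCH1 at 3.41 and MARCH4 at 1.27 lie right of the band, MARCH6 at -0.17 lies within it, and the open circles of MARCH3 and MARCH8 have wide intervals because of their low counts.

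Levels of different members were compared as TPM, a count scaled by transcript length and by the library's total, computed here from the counts and the length of each canonical transcript. In CBX8 KO the order was MARCH6 (71.6 TPM), MARCH7 (44.8), MARCH5 (15.5), MARCH9 (9.42), MARCH2 (6.06), MARCH1 (1.47), MARCH4 (1.11), MARCH8 (0.397) and MARCH3 (0.382). Of these neighbours in the order, MARCH8 and MARCH3 overlapped between libraries and the others did not. Upon re-expression MARCH1 stood at rank 4, with 16.7 ± 1.73 TPM (SD, n = 3), overlapping MARCH5 at 19.1 ± 2.50 TPM (SD, n = 3) and above MARCH9 at 11.7 TPM. MARCH6 (68.1 TPM) and MARCH7 (46.7 TPM) stood above them, and MARCH2 (8.59), MARCH4 (2.88), MARCH3 (0.637) and MARCH8 (0.402) followed. On this scale, which has no TMM adjustment, the MARCH6 libraries of both conditions overlapped (69.83 to 73.29 TPM in CBX8 KO and 65.80 to 70.21 TPM upon re-expression). MARCH1 made up 0.975% of the summed TPM of the family in CBX8 KO and 9.56% upon re-expression, while MARCH6 went from 47.5% to 39.0%. These are shares of a common sum, so the rise of MARCH1 by itself lowers the share of MARCH6. With the longest transcript or the coding length in place of the canonical transcript, MARCH1 kept rank 6 in CBX8 KO and rank 4 upon re-expression. The longest transcript differs from the canonical one in length only for MARCH2 (1667 against 1380 bases), so that setting could hardly move the ranks.

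**Figure D3:**
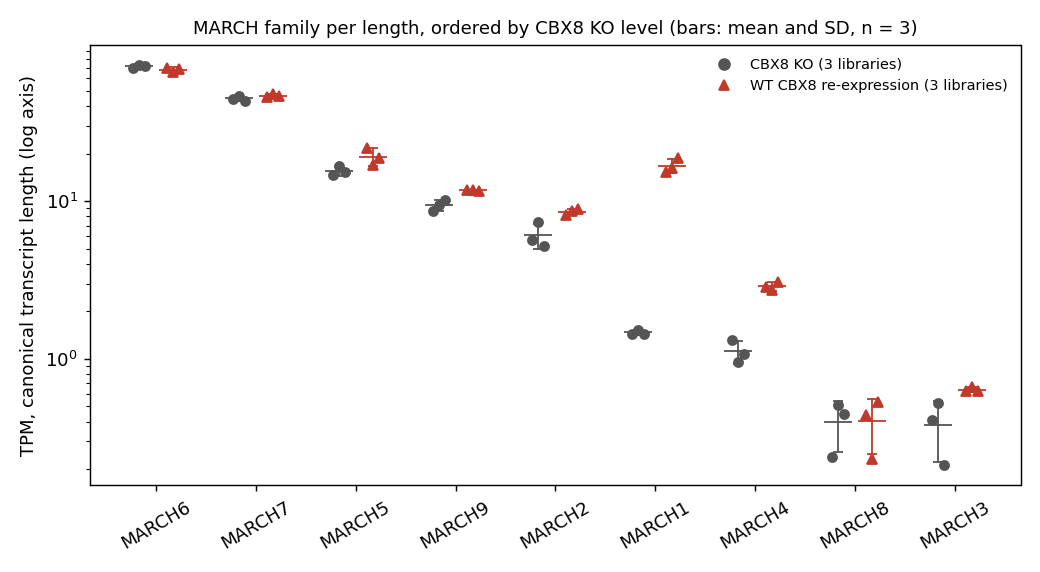
TPM on a log axis for the 9 members, ordered by their level in CBX8 KO, with a circle or triangle per library and the mean and SD of each condition (n = 3). MARCH1 has rank 6 in CBX8 KO at 1.47 TPM and rank 4 upon re-expression at 16.7 TPM.

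Of the 36 pairs of canonical transcripts, 0 share a run of 31 bases. MARCH10 and MARCH11, the remaining family members, had at most 1 count in any library.

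The genes around the members were examined next, as the 5 nearest on each side and those inside, where a symbol of the table matched. Of 10 such genes for MARCH1, 7 had no count in any library and 1 was tested. This was TMA16, a ribosome biogenesis factor 3.759 kb beyond the 3′ end of MARCH1. No neighbour on the side of the upstream start was tested. TMA16 had 300, 327 and 285 counts in CBX8 KO and 297, 307 and 301 upon re-expression. Its log2 fold change was -0.10 (95% interval -0.26 to 0.07, adjusted p = 0.49, edgeR). ANP32C, inside MARCH1, had 0, 1 and 3 counts against 2, 0 and 1, and APELA, which encodes a small secreted peptide, had 1, 0 and 2 against 3, 0 and 0. Around all 9 members 29 neighbours were tested, of which 1 rose (BAZ2B, near MARCH7, log2 fold change 0.66) and 2 fell (CMBL, near MARCH6, -0.41, and CDK4, near MARCH9, -0.14). Over all tested genes 6.23% rose and 6.63% fell, so these counts are near the background. The 3 genes were named after their values were seen.

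The genes whose pattern lay nearest to that of MARCH1 were found by the Euclidean distance of centred log2 CPM over the 6 libraries, leaving out genes whose average log2 CPM was below 0. They were GALNT16 (distance 0.644), a glycosyltransferase, KRT18P12 (0.700), a keratin pseudogene, AC136475.10 (1.09), MYO16 (1.26), an unconventional myosin, and PNPLA7 (1.42), a lysophospholipase. GALNT16 had 3, 4 and 6 counts in CBX8 KO and 70, 83 and 78 upon re-expression. MYO16 had 0, 3 and 0 against 28, 31 and 18. AC136475.10 had 8, 8 and 4 against 90, 55 and 53. KRT18P12 had 1, 2 and 0 against 26, 25 and 35, and PNPLA7 had 3, 2 and 5 against 24, 27 and 25. Each of these genes had fewer counts than MARCH1 in every library and passed the filter on low counts only through the re-expression libraries. The distance rests on the same contrast that selected MARCH1.

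Genes of the membrane ligase pathway were taken from lists of E2 enzymes, other RING ligases, substrates and regulators. Of 14 E2 enzymes and their membrane partners, which hand ubiquitin to such ligases, none passed edgeR's test in either direction. Over all tested genes 6.23% were called higher and 6.63% lower. At an unadjusted p under 0.05, 0 of the 14 were higher and 4 lower. For this and the later lists, the share of all tested genes under that unadjusted threshold was not counted. DESeq2 and limma voom called 0 of the E2 list in either direction as well. Its median log2 fold change was -0.08, beside 0.0049 over all tested genes. Of 26 other ligases, 20 were tested, 1 rose and 0 fell, close to the 6.23% and 6.63% of all tested genes. At an unadjusted p under 0.05, 4 were higher and 1 lower, and DESeq2 and limma voom called 0 lower. The gene that rose was RNF145, a sterol-responsive ligase of the endoplasmic reticulum, with 1397, 1602 and 1525 counts in CBX8 KO and 1965, 1922 and 1773 upon re-expression. Its conditions did not overlap, and its log2 fold change was 0.24 (SE 0.05, adjusted p = 0.0027, edgeR).

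Of 26 surface and endosomal proteins described as substrates of the family, 16 were tested, 2 rose and 4 fell (6.23% and 6.63% of all tested genes), with a median of -0.13. The transferrin receptor TFRC, which brings iron into the cell and is a substrate of MARCH8, had 6877, 7425 and 6941 counts in CBX8 KO and 5331, 5454 and 5469 upon re-expression. Every re-expression library was lower, and the log2 fold change was -0.47 (SE 0.05, adjusted p = 4.6e-08, edgeR). FAS, a death receptor, had 101, 96 and 108 counts against 66, 75 and 69, a log2 fold change of -0.63 (SE 0.13, adjusted p = 0.0018, edgeR). CD44, a hyaluronan receptor, and SLC3A2, the heavy chain of amino acid transporters, fell by 0.21 and 0.20 on the log2 scale, and are named after their values were seen. The chloride channel CFTR, a substrate of MARCH2, rose from 7, 3 and 4 counts to 18, 27 and 31, a log2 fold change of 2.32 (SE 0.39). CFTR is counted among the 16 tested and the 2 that rose, although it passed the filter on low counts only through the re-expression libraries. Its p-value is therefore not given. With no filter on low counts its log2 fold change was 2.31. ALCAM rose from 1377, 1450 and 1269 counts to 1699, 1776 and 1718 (log2 fold change 0.26, SE 0.05, adjusted p = 0.00065, edgeR).

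The immune substrates for which MARCH1 is known were hardly measured. CD86, HLA-DRB1, HLA-DPA1 and HLA-DMB had no count in any library, and HLA-DRA had 4, 0 and 0 counts in CBX8 KO and 0 in every re-expression library. Their depth does not allow a comparison, and HLA-DRA, HLA-DPA1 and HLA-DMB have near-identical copies on alternate contigs of hg38, so their counts are uncertain. CD74, the MHC class II chaperone, was low, with mean CPM of 5.89 in CBX8 KO and 4.75 with CBX8 (log2 fold change -0.31, 95% interval -0.71 to 0.10).

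Of 13 regulators of MHC class II and the IL-10 pathway, 11 were tested, 0 rose and 1 fell (6.23% and 6.63% of all tested genes). At an unadjusted p under 0.05, 0 were higher and 1 lower, and DESeq2 and limma voom called 0 higher. CIITA, the master regulator of MHC class II genes, had mean CPM of 30.6 in CBX8 KO and 29.8 with CBX8 (log2 fold change -0.04, 95% interval -0.22 to 0.15). IL10 and IL10RA had no count in any library. The gene that fell was CTSS, the protease that trims the class II chaperone, with 80, 84 and 80 counts against 55, 57 and 77 (log2 fold change -0.45, SE 0.15, adjusted p = 0.049, edgeR). This call was lost under 9 of 14 alternatives, with adjusted p between 0.0575 and 0.217 in those 9.

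Of 13 proteins of mitochondria and the endoplasmic reticulum described as substrates of MARCH5 or MARCH6, all were tested, 0 rose and 1 fell, near the 6.63% of all tested genes that fell. At an unadjusted p under 0.05, 0 were higher and 2 lower, and DESeq2 and limma voom called 0 higher. The gene that fell was SQLE, squalene epoxidase, with 559, 600 and 576 counts in CBX8 KO and 400, 414 and 385 upon re-expression. Its conditions were well apart, and the log2 fold change was -0.62 (SE 0.06, adjusted p = 6.1e-08, edgeR). The other 12 had log2 fold changes from -0.19 (RGS2) to 0.24 (PMAIP1). Among them MFN2, a mitochondrial fusion protein, was lower in CPM in every re-expression library (log2 fold change -0.14) but did not pass (adjusted p = 0.068, edgeR). The values are levels of RNA, and no protein was measured.

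**Figure D4:**
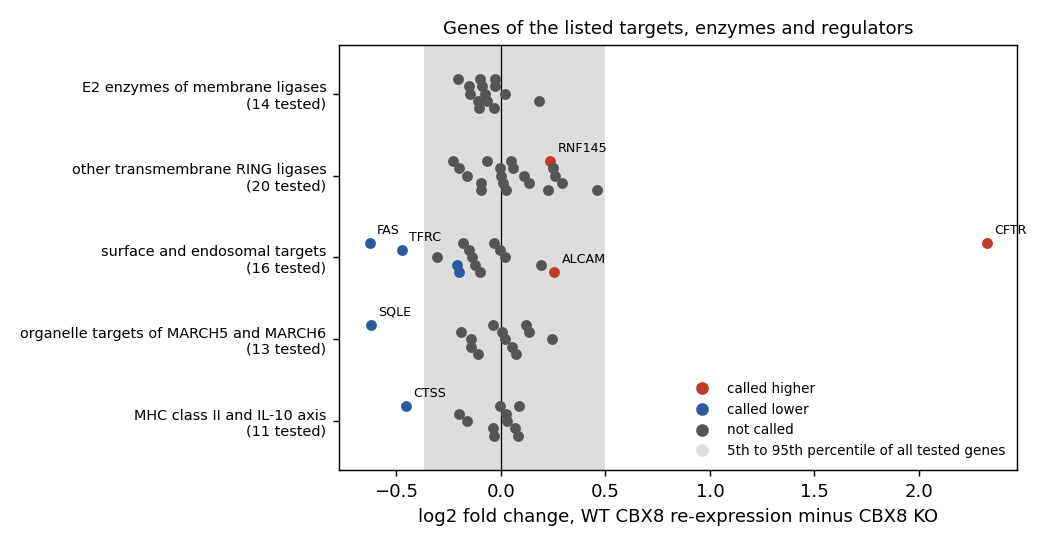
Log2 fold change of each tested gene of the 5 pathway lists, with the largest called genes of each list named and a grey band from the 5th to the 95th percentile of all tested genes. Most points lie within the band, and FAS, SQLE, TFRC and CTSS lie to the left of it. CFTR lies far to the right at 2.32, with low counts in CBX8 KO.

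Markers of the blood cell types in which MARCH1 is best known were counted in the same libraries. Of 11 B cell, dendritic and myeloid markers, 5 (MS4A1, LYZ, FLT3, CD1C and AIF1) had no count in any library and 8 had fewer than 10 counts in every library. Their summed level was 11.7 to 15.2 CPM in the CBX8 KO libraries and 15.9 to 16.4 CPM in the others. Most of it was ITGAX, at 8.12 CPM and 8.32 CPM. Of the tested markers ITGAX, CSF1R and CD83, only the activation marker CD83 rose, where 6.23% of all tested genes did. It had 25, 21 and 22 counts against 45, 35 and 37 (log2 fold change 0.69, SE 0.23, adjusted p = 0.044, edgeR). This call was not examined under the alternatives. CD83 is named after its values were seen. The 4 T cell markers summed to at most 0.128 CPM and the 4 endothelial markers to at most 0.474 CPM in any library. The 4 epithelial markers summed to 0.755 to 1.91 CPM in the CBX8 KO libraries and 1.25 to 2.49 CPM in the others.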

How the data were processed

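RNA-seq of 6 libraries was analysed, 3 of CBX8 KO and 3 of WT CBX8 re-expression, grouped by their titles and the study's methods. Poly(A) RNA was read as 100 bp pairs. Per gene symbol, the authors deposited counts that were not normalized, after trimming with Trimmomatic and alignment to hg38 with HISAT2. The counting program, annotation and strand setting are not given in the sources used here. Of 57133 symbols, 29123 had no count. No molecular identifiers were used, and depth gives the counting error alone.

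The counts were filtered in R 4.3.3 with edgeR 4.0.16 (filterByExpr, 14461 genes kept), scaled by TMM and compared by the quasi-likelihood test with condition as the only term. P-values were adjusted by Benjamini-Hochberg over all tested genes, with FDR < 0.05 as threshold. The standard error is the absolute log2 fold change over the square root of F. CPM uses TMM-adjusted library sizes. Alternatives were RLE, upper quartile and unadjusted library sizes, no filter, a filter of 1 CPM in 3 libraries, DESeq2 1.42.0, limma 3.58.1 voom, a replicate block, and omission of each library in turn. The test was checked on simulated counts.

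The members and gene lists were chosen with earlier results of these data known. Named genes are CBX8, the members, up to 4 genes of each list with the largest change among those called, neighbours of MARCH1 with a count, and the 5 genes nearest MARCH1 in pattern. Genes named beyond this were chosen after their values were seen. The result of 1 marker gene is not reported here and it was left out of its list. GENCODE release 44 gave coordinates and lengths for 36219 symbols by name and 896 by RefSeq synonym, and lengths covered 96.9% to 97.0% of counts. Alternate copies were sought with minimap2 2.31 at 95% of transcript bases, and 6 of 92 list genes and 0 of 9 members had one. Promoters come from RefSeq, GRCh38.p14.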

Additional observations from a re-analysis of the deposited data

How the results depend on the processing

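The log2 fold change of MARCH1 lay between 3.32 and 3.47 under the 14 alternatives, and that of MARCH4 between 1.16 and 1.42 with each adjusted p at most 0.0028 (edgeR, DESeq2 or limma). With library sizes not adjusted by TMM the median of all genes shifted by 0.055 and 1400 genes were called higher and 592 lower, against 901 and 959, and DESeq2 called 501 and 676. MARCH7 changed sign under library size only, to 0.020 (adjusted p = 0.858, edgeR). Library size only gave 0 paralogs lower, 3 other ligases higher, 0 regulators of MHC class II lower, and 2 neighbours higher and 1 lower. Upper quartile scaling gave 0 regulators and 1 neighbour lower. DESeq2 gave 0 regulators lower, 0 neighbours higher and 1 lower. No filter on low counts gave 2 other ligases higher. With the replicate number as a block 0 paralogs, 0 regulators and 1 neighbour were lower, and 739 genes were called higher and 766 lower over all genes. Same-numbered libraries correlated at -0.141, -0.0863 and -0.067 in their deviations, and every library's number matched best with a different number, so the numbers were not taken as pairs. Leaving out 1 library gave 0 to 1 paralogs lower, 1 to 2 other ligases higher, 0 to 1 E2 enzymes lower, 0 to 1 regulators lower, and 0 to 1 neighbours higher and 1 to 2 lower. The paralog call was lost without CBX8 KO replicate 2 or WT CBX8 re-expression replicate 2. The cause of these changes was not tested. Low counts limit MARCH3 and MARCH8, and the single comparison of 3 with 3 libraries limits the rest.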
